A study of Homo sapiens with 2 samples.

Results

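Classical cadherins and catenins, the proteins that build adherens junctions, were examined together with CDH17 in PLC8024, a human hepatocellular carcinoma (HCC) cell line. The 9 genes were 5 cadherins (CDH1, CDH2, CDH3, CDH6 and CDH17) and 4 catenins (CTNNA1, CTNNB1, CTNND1 and JUP), out of 19775 genes named on the array. They were chosen by name, and each was represented by every probe set that the platform annotation gives exactly 1 symbol, equal to that gene. This gave 21 of 41091 probe sets and covered 8 of the 9 genes. The 4 probe sets annotated to CTNND1, which encodes p120-catenin, also carry the symbol of a read-through transcript with TMX2, so CTNND1 was not analysed here.

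The groups were miR-130b, PLC8024 cells negative for CD133 that were transduced with a miR-130b lentivirus, and empty vector, cells labelled as the same sorted CD133-negative fraction and given the lentivirus without the microRNA. PROM1, the gene of CD133, stood at 6.07 in the library labelled miR-130b and at 9.19 in the library labelled empty vector, a difference of -3.12 on the log2 scale. Both levels lay above 4.88, the middle of all probe sets, the empty vector one by more. This goes against the CD133-negative label at the level of RNA, though that middle is not a detection call. The 2 libraries did not match in the sort marker. Each group holds 1 array, so no p-value or replicate error exists, and every difference lies between 2 arrays of 2 cultures whose other differences cannot be told apart from the vector. The source label for miR-130b speaks of transfection, whereas the protocol names lentivirus, and the promoter driving the microRNA is not given in the sources used here.

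Cadherins are calcium-dependent adhesion receptors that bind the same cadherin on the neighbouring cell. Inside the cell, the tail of a classical cadherin holds CTNNB1 (beta-catenin) or JUP (plakoglobin), which recruits CTNNA1 (alpha-catenin), the link to actin, while CTNND1 binds nearer the membrane and slows removal of the cadherin. Hepatocytes are unusual among epithelial cells in carrying both E-cadherin (CDH1) and N-cadherin (CDH2). CDH17, liver-intestine cadherin, has a short tail that does not bind catenins, and is counted here among the cadherins all the same.

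The agent of the study is shown by its 3p arm, the strand that carries the targeting activity of this microRNA family. The sequence is from RefSeq (GRCh38.p14, plus strand, chr22:21653354-21653375), with the seed, bases 2 to 8, in capitals.
hsa-miR-130b-3p: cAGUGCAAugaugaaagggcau
No transcript sequences were used, so matches to this seed in the cadherin and catenin messages were not analysed here.

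The cadherins and the catenins differed in how far apart the arrays stood. Of the 5 cadherins, 3 were at least 1.5-fold lower in miR-130b cells (CDH2 7.84-fold, CDH17 2.32-fold and CDH1 1.77-fold), and CDH6 and CDH3 lay within 1.5-fold by their brightest probe set. All 3 analysed catenins lay within 1.5-fold, between -0.12 and 0.00 on the log2 scale. Across all 13260 genes above the expression floor, 2.68% were at least 1.5-fold lower and 0.294% at least 1.5-fold higher. No cadherin or catenin was 1.5-fold higher. At 2-fold, 2 of the 8 genes were lower, beside 1.52% of all genes.

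The floor was 4.88 on the log2 scale, the midpoint of the values of every non-control probe set in the 2 arrays, and a gene passed when its brighter array reached it. All 8 genes passed, through 16 of their 21 probe sets. The only spread that the design offers is technical: the difference varied between probe sets of a gene with a pooled SD of 0.202 (log2, 6047 genes), which holds no variation between cultures. The log2 values are not comparable between probe sets, so no order of levels between genes is given.

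**Figure D1:**
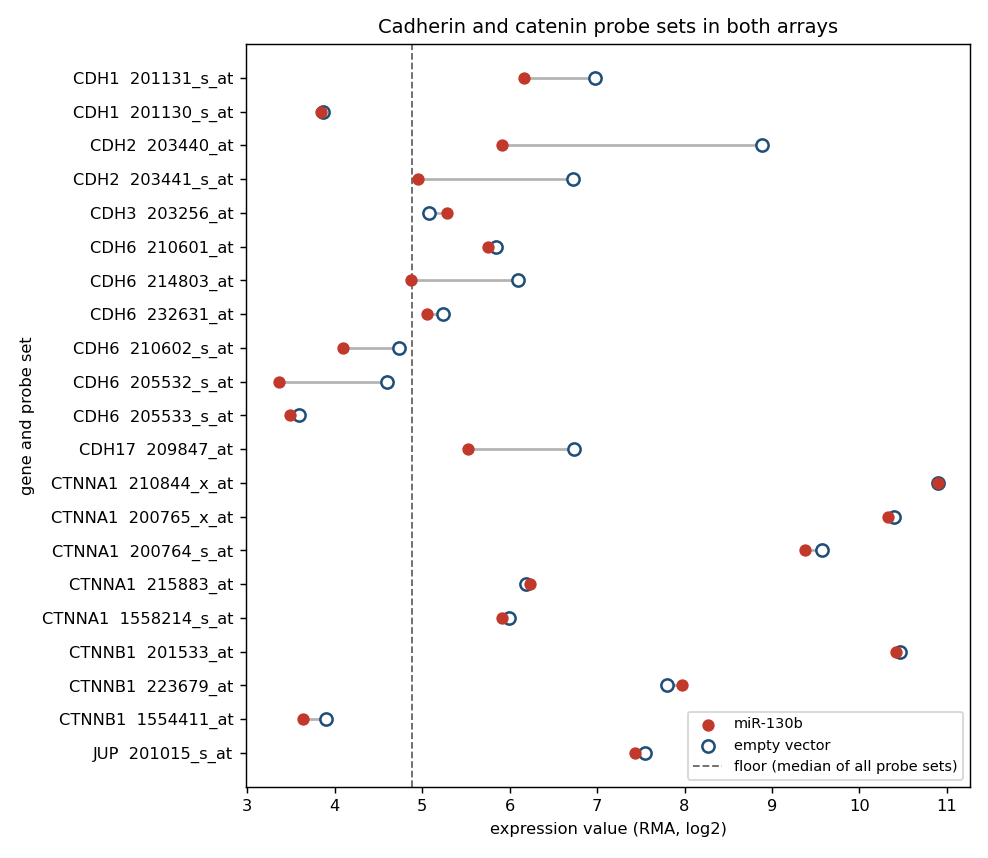
Expression value (RMA, log2, horizontal axis) of the 21 cadherin and catenin probe sets in the miR-130b array (filled points) and the empty vector array (open points), with a grey line joining the 2 arrays and a dashed line at the floor of 4.88. The longest lines belong to CDH2, and the 9 catenin probe sets have differences of at most 0.26 in either direction.

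CDH2 encodes N-cadherin, which is also abundant in mesenchymal and neural cells. Its brighter probe set, 203440_at, stood at 5.91 in miR-130b cells and 8.88 in empty vector cells on the log2 scale, a difference of -2.97. In linear terms the miR-130b signal was 12.8% of the empty vector signal. Its other probe set, 203441_s_at, stood at 4.96 in miR-130b cells and 6.73 in empty vector cells, a difference of -1.77. Both probe sets were thus lower in miR-130b cells, and the second stood 0.08 above the floor in miR-130b cells. CDH2 had the 27th lowest difference of the 13260 genes. Its 2 probe sets differed from each other with an SD of 0.85, more than the pooled technical SD of 0.202, and the spread between cultures is unknown.

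CDH1 encodes E-cadherin, the main adhesion receptor of epithelial junctions. Probe set 201131_s_at stood at 6.16 in miR-130b cells and 6.98 in empty vector cells, a difference of -0.82 on the log2 scale. The other CDH1 probe set, 201130_s_at, lay below the floor in both arrays, at 3.84 in miR-130b cells and 3.87 in empty vector cells. The lower CDH1 signal therefore rests on 1 probe set, whose suffix _s_at marks probes shared by several transcripts. E-cadherin and N-cadherin messages were both lower in miR-130b cells. By its brighter probe set, CDH2 was lower by a further 2.15 log2 units than CDH1. The gap is smaller by the other CDH2 probe set, at -1.77. CDH1 ranked 252nd from the lowest.

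CDH17 is expressed mainly in intestine and in some digestive tract and liver tumours. Its only probe set, 209847_at, stood at 5.53 in miR-130b cells and 6.74 in empty vector cells, a difference of -1.21 on the log2 scale. The gene ranked 151st from the lowest, and no further probe set exists to check it.

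CDH6, a type II classical cadherin first described in kidney, had 6 probe sets that disagreed in size. The brightest, 210601_at, stood at 5.76 in miR-130b cells and 5.85 in empty vector cells, a difference of -0.09. Probe set 214803_at stood at 4.87 in miR-130b cells and 6.09 in empty vector cells, a difference of -1.22. It passed the floor through the empty vector array alone. All 6 were lower in miR-130b cells, 3 of them by more than 1.5-fold, of which 2 lay below the floor in both arrays. Of all measured probe sets, 44.7% were lower and 2.83% at least 1.5-fold lower. Those shares do not cover probe sets below the floor, so the count is only a description. Probe set 232631_at differed by -0.19. Of the 3 below the floor in both arrays, 205532_s_at differed by -1.23, 210602_s_at by -0.64 and 205533_s_at by -0.10. The 3 measured probe sets averaged -0.50 with an SD of 0.62 between them, so the CDH6 result depends on which probe set stands for the gene.

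CDH3 encodes P-cadherin, a classical cadherin of placenta and basal epithelia. Its probe set 203256_at stood at 5.28 in miR-130b cells and 5.08 in empty vector cells. This difference of 0.20 on the log2 scale is about the technical SD between probe sets of a gene. CDH3 was the only one of the 8 genes above 0 by its brightest probe set.

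CDH3 and CDH1 are next to each other in the RefSeq order of protein-coding genes on chromosome 16, so the pair gives a comparison of neighbours. CDH1 differed by 1.02 log2 units more to the lower side than CDH3, and TANGO6, the gene on the other side of CDH1, differed by -0.05. Beside CDH2 on chromosome 18, CHST9 differed by -0.16, while DSC3, a desmosomal cadherin, lay below the floor in both arrays. The genes flanking CDH17 were higher in miR-130b cells, PDP1 by 0.39 and GEM by 0.55. This was not particular to CDH17. Also higher were ZFP90 beside CDH3 (0.46), ZNF621 (0.29) and ULK4 (0.36) beside CTNNB1, and HAP1 (0.10) and P3H4 (0.21) beside JUP. DROSHA beside CDH6 differed by 0.03 and HSPA9 beside CTNNA1 by 0.04.

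CTNNB1 encodes beta-catenin, which links cadherin tails to alpha-catenin and also acts as the transcriptional effector of Wnt signalling. Probe set 201533_at stood at 10.42 in miR-130b cells and 10.47 in empty vector cells, a difference of -0.05. Probe set 223679_at stood at 7.97 in miR-130b cells and 7.80 in empty vector cells, a difference of 0.17. The 2 measured probe sets thus differed in opposite directions by less than the technical SD. The third, 1554411_at, lay below the floor in both arrays and differed by -0.26.

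CTNNA1 encodes alpha-catenin, which binds actin. Its brightest probe set, 210844_x_at, stood at 10.89 in miR-130b cells and 10.89 in empty vector cells, with exactly the same deposited value. The suffix _x_at marks probes that may also hybridise to other transcripts. Of the 4 others, 200765_x_at differed by -0.07, 200764_s_at by -0.19, 1558214_s_at by -0.08 and 215883_at by 0.05. All 5 CTNNA1 probe sets were above the floor, and their differences had a mean of -0.06 and an SD of 0.09.

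JUP encodes plakoglobin, a close relative of beta-catenin found in adherens junctions and desmosomes. Its probe set 201015_s_at stood at 7.43 in miR-130b cells and 7.55 in empty vector cells, a difference of -0.12. By the brightest probe set of each, CDH2 differed by 2.92 log2 units more to the lower side than CTNNB1, its partner in the complex. The gap is smaller by the other CDH2 probe set, at -1.77. The 2 messages thus moved unequally between these arrays. The same-array comparison does not show that CTNNB1 was unchanged.

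Counted by probe set, 12 of the 16 measured were lower in miR-130b cells, 3 were higher and 1 was equal. Over all 23352 measured probe sets with 1 gene, 44.7% were lower. Of the 8 measured cadherin probe sets, 7 were lower, 5 of them at least 1.5-fold and 4 at least 2-fold, and their median difference was -1.02. Among those 2-fold lower, 214803_at of CDH6 passed the floor through the empty vector array alone, so these values are only a description. Of the 8 measured catenin probe sets, 5 were lower and none passed 1.5-fold, with a median of -0.06. The background shares of measured probe sets were 2.83% at least 1.5-fold lower, 1.43% at least 2-fold lower and 0.33% at least 1.5-fold higher. Probe sets of a gene share its transcripts and are not replicates. By gene, the median difference of the 8 was -0.10, that of the 5 cadherins -0.82 and that of the 3 catenins -0.05, beside 0.03 for all 13260 genes.

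**Figure D2:**
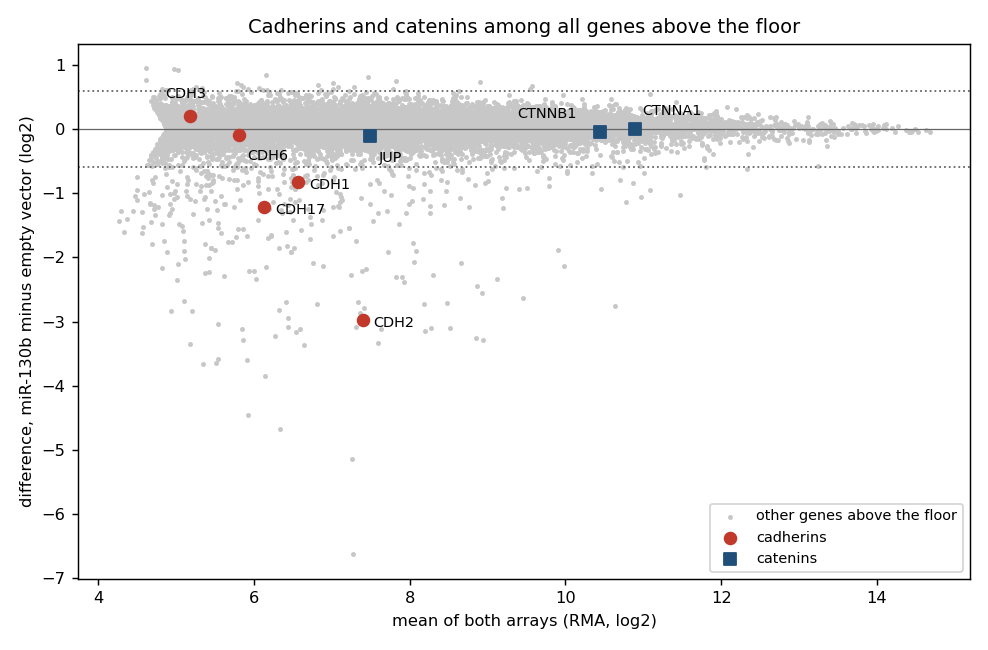
Difference, miR-130b minus empty vector (log2, vertical axis), against the mean of both arrays (RMA, log2, horizontal axis) for the 13260 genes above the floor, each by its brightest probe set, with cadherins as red circles, catenins as blue squares and dotted lines at 1.5-fold. CDH2, CDH17 and CDH1 lie below the lower dotted line, whereas CDH6, CDH3 and the 3 catenins lie between the lines.

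A wider set of 97 genes in 7 lists was covered, of which 64 were above the floor. It holds junction genes and also regulators, among them nuclear partners of beta-catenin and repressors of CDH1. By the brightest probe set, 3 of the 64 were at least 1.5-fold lower and 1 at least 1.5-fold higher, and the median difference of the 64 was -0.005. That is 4.69% lower and 1.56% higher, beside 2.68% and 0.294% of all genes. One of the 3 lower genes, NECTIN3, passed the floor through the empty vector array alone, so the count is only a description.

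The list of nectins and actin linkers held all 3 lower genes, with 15 of 17 genes measured and a median of -0.16. LIMA1 (EPLIN), which ties the cadherin-catenin complex to actin filaments, stood at 8.58 in miR-130b cells and 9.81 in empty vector cells, 2.35-fold lower. Its other measured probe set, 222457_s_at, differed by -1.79 and lay below the floor in miR-130b cells, at 4.64. ZYX, encoding the LIM protein zyxin of focal adhesions and tensed junctions, stood at 8.41 in miR-130b cells and 9.28 in empty vector cells, and its 2 probe sets differed by -0.87 and -0.99. NECTIN3, an immunoglobulin-type adhesion receptor that acts beside cadherins, stood at 4.51 in miR-130b cells, below the floor, and 5.47 in empty vector cells, a difference of -0.97. Among the rest of that list, the actin crosslinker ACTN4 differed by -0.55 and VCL, encoding vinculin, which binds stretched alpha-catenin, by -0.43. AFDN, the nectin adaptor afadin, differed by 0.01.

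The other cadherins gave little signal, with 4 of 17 above the floor, none beyond 1.5-fold and a median of -0.06. The largest of these differences were -0.15 for CDH19 and 0.11 for CDH22. CDH5 and CDH11, the endothelial and mesenchymal members of the family, lay below the floor in both arrays, CDH5 at 3.54 in miR-130b cells and 3.96 in empty vector cells, and CDH11, by the highest of its probe sets, at 4.38 in miR-130b cells and 4.45 in empty vector cells. Their levels were therefore not resolved here. Of the other catenin relatives, 5 of 7 were measured, with a median of 0.11. CTNND2, a relative of p120-catenin, differed by -0.22 and CTNNBIP1, an inhibitor of beta-catenin binding to TCF factors, by 0.13.

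Desmosome genes, the other cadherin-based junction, had 7 of 12 measured, none beyond 1.5-fold and a median of -0.17. The desmosomal cadherin DSG2 stood at 7.12 in miR-130b cells and 7.64 in empty vector cells, a difference of -0.52, and the plakophilin PKP1 differed by -0.42. DSP, encoding desmoplakin, stood at 11.43 in miR-130b cells and 11.25 in empty vector cells, a difference of 0.18. None of 14 measured genes of cadherin turnover and dephosphorylation passed 1.5-fold, with a median of -0.02. EGFR had -0.42 by its brightest probe set and up to 0.27 by another, and CBLL1 (Hakai), a ubiquitin ligase for E-cadherin, by 0.30.

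In the list of the beta-catenin destruction complex and its nuclear partners, 15 of 17 genes were measured, with a median of 0.07. By the brightest probe set, 1 was 1.5-fold higher and none lower. GSK3B, a kinase of the complex, had 0.07 by its brightest probe set but values down to -0.79 among the 3 measured. LEF1, a DNA-binding partner of beta-catenin, stood at 8.93 in miR-130b cells and 8.34 in empty vector cells. Its difference of 0.59 is just past 1.5-fold (0.58) and no longer passes once the median or a loess curve is subtracted. AXIN2, a scaffold of the complex and a Wnt target, had 0.25 by its brightest probe set and -0.11 by another. TCF7L2, a further DNA-binding partner, had 0.19 by its brightest probe set and values down to -0.29 among its 7 probe sets.

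**Figure D3:**
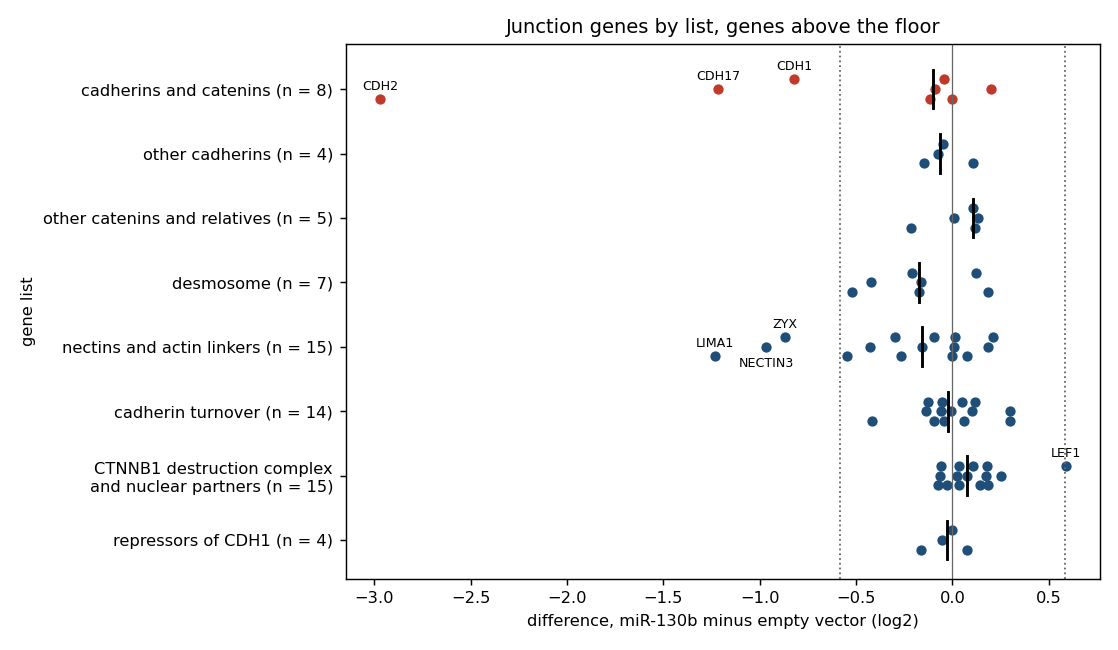
Difference, miR-130b minus empty vector (log2, horizontal axis), of every gene above the floor in 8 lists, 1 point per gene by its brightest probe set, with the cadherins and catenins in red and the 7 partner lists in blue, black bars at list medians and dotted lines at 1.5-fold (vertical offsets only separate points). The named genes on the left are CDH2, CDH17 and CDH1 and, among the partners, LIMA1, NECTIN3 and ZYX, and LEF1 stands on the right dotted line.

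Repressors of CDH1 transcription were set beside the lower CDH1 signal. Only 4 of 11 were above the floor, none passed 1.5-fold, and the median was -0.03. SNAI1 (Snail) had the same value of 6.83 in both arrays, ZEB1 differed by 0.07, TCF3 by -0.06 and TCF4 by -0.16. SNAI2, ZEB2 and TWIST1 lay below the floor in both arrays.

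The Snail and ZEB factors among these repressors bind the E-box CAGGTG, which reads CACCTG on the other strand. Both forms were searched for in the windows from 250 bases before to 50 bases after the starts that RefSeq gives. Such windows were at hand for CDH2, CTNNA1, CTNNB1 and JUP, 9 windows in all. None was at hand for CDH1, CDH3, CDH6 or CDH17, so the search says nothing on CDH1. One window, of JUP, held the motif, 2 times. Of all 35116 windows, 20.6% held it at least 1 time and 3.49% at least 2 times. The JUP window is printed for these 2 E-boxes, in capitals, which begin 54 and 43 bases before the start, and a CDH2 window as that of the gene with the largest difference, without the motif. Both are from RefSeq (GRCh38.p14, minus strand, 5′ to 3′), JUP at chr17:41785927-41786226 and CDH2 at chr18:28177081-28177380.
JUP: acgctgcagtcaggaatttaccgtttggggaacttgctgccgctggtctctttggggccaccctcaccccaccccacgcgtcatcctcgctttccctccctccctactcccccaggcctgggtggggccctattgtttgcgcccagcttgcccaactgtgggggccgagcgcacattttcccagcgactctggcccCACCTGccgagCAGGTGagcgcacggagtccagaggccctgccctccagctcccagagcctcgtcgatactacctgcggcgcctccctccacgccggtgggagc
CDH2: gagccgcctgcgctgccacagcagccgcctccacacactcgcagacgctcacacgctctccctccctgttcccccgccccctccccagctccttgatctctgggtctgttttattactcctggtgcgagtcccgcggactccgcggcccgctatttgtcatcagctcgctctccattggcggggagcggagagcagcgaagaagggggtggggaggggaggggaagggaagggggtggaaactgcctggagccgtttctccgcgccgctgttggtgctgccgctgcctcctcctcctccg
A match describes letters in a window, not a binding site, and its absence says only that these letters are not there.

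The arrays also differed in markers that bear on the cells and on the RNA. Beside the sort marker PROM1, with -3.12, hepatocyte-lineage markers were present, with 8 of 9 measured. Of these, 2 were at least 1.5-fold lower, TTR with a log2 difference of -3.34 and ALB with -1.03, beside 2.68% of all genes. By their brightest probe sets, AFP differed by -0.57 and APOA1 by -0.51. The 4 above 0 were APOB (0.04), SERPINA1 (0.08), FGB (0.01) and TF (0.03). The list had a summed linear signal of 63914 in miR-130b cells and 69321 in empty vector cells. Of 7 fibroblast markers, 5 were measured, with a summed linear signal of 286 in miR-130b cells and 514 in empty vector cells. COL1A2 differed by -3.08, at 4.90 in miR-130b cells and 7.98 in empty vector cells, and makes up most of the fall in this sum. By their brightest probe sets, PDGFRB differed by -0.08, DCN by -0.08 and THY1 by 0.24. COL1A1 differed by -0.08 in its brightest probe set, with a range from -1.68 to 0.38 over the 4 measured, and COL3A1 and LUM lay below the floor in both arrays. Of 4 biliary markers, all measured, KRT19 differed by -3.03, EPCAM by -1.16, SOX9 by -0.30 and KRT7 by 0.18. KRT19 and EPCAM lay below the floor in miR-130b cells, at 4.02 and 4.09, and passed it through the empty vector array alone. The biliary list had a summed signal of 393 in miR-130b cells and 589 in empty vector cells. Of 6 endothelial markers, 3 were measured, with a summed signal of 504 in miR-130b cells and 440 in empty vector cells. By its brightest probe set, PECAM1 stood well above the floor, at 8.72 in miR-130b cells and 8.51 in empty vector cells. TEK differed by 0.16 and CLDN5 by 0.03, and VWF, KDR and CDH5 lay below the floor. Of 6 leukocyte markers, LYZ alone was measured, at 9.46 in miR-130b cells and 9.77 in empty vector cells by its brightest probe set, with a difference of -1.72 in the other, and PTPRC, CD14 and CD3E lay below the floor. The 3' to 5' ratio of ACTB, a measure of RNA degradation and labelling, was 2.41 in miR-130b cells and 1.95 in empty vector cells, and that of GAPDH was 1.52 in miR-130b cells and 1.37 in empty vector cells. Polyadenylated control transcripts spiked into the RNA had 26 of their 27 probe sets lower in miR-130b cells, and the median log2 difference was -0.24. That shift is larger in size than the difference of each measured catenin probe set. It is a shift of added transcripts. The median difference of all measured genes was 0.03, but RMA usually evens out the array medians. That value therefore says nothing on RNA input or labelling. The part of these differences in the lower CDH2, CDH17 and CDH1 signals was not tested. In such bulk RNA, fewer cells carrying a transcript and less of it per cell cannot be told apart.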

How the data were processed

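Total RNA of the 2 samples was hybridised to 1 expression array each. The authors deposited a log2 value for each of 54675 probe sets on each array, made with RMA per the submitters' processing notes. Its version and settings, and which arrays were normalized jointly, are not stated in the sources used here, and the table has no detection call. The number of arrays limits the precision.

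Gene names came from GEO's annotation of the platform, and 41037 of the 41091 with 1 symbol were matched to RefSeq by Entrez identifier. Those with several symbols (1801) or none (11721) named no gene. The empty vector value was subtracted from the miR-130b value of each probe set, and each gene above the floor was represented by its probe set with the highest mean. Counts at 1.5-fold and 2-fold are rules of size, not tests. The code was checked on simulated data. All probe sets of the 9 genes are given, and of each other list every gene beyond 1.5-fold and the 2 largest differences. Genes named besides these, and the neighbours, were added after their values were seen. The members and lists were chosen with earlier results of these data known. Python 3.11.15, numpy 2.4.6, pandas 2.3.3, statsmodels 0.14.6 and matplotlib 3.10.9 were used.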

Additional observations from a re-analysis of the deposited data

How the results depend on the processing

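Each result was recomputed with a floor at the 75th percentile (6.98) or none, with the mean of measured probe sets, without probe sets carrying the suffixes _x_at and _s_at, after median centring and after loess centring (span 0.3). Taking the lowest difference among a gene's measured probe sets, and a 2-fold threshold, were chosen after seeing the data. The 3 lower cadherins became 1 of 4 genes with the higher floor, where CDH17 and CDH1 were not kept, CDH1 by a narrow margin. Without suffixed probe sets 2 of 6 genes were lower, since CDH1 was not covered. With the lowest difference the count was 4 of 8, CDH6 being the addition. It entered through 214803_at, which passed the floor in the empty vector array alone. The median of the 8 genes, -0.10, became -0.31 with the mean of probe sets and -0.51 with the lowest difference. The mean of probe sets moved CDH2 to -2.37 and CDH6 to -0.50. Among junction partners, the 3 lower genes became 1 without suffixed probe sets and at 2-fold. They became 5 with the lowest difference, ACTN1 (-0.60) and GSK3B (-0.79) being the additions. The single higher partner, LEF1, became 0 without suffixed probe sets, with median or loess centring, and at 2-fold. Over all results, 76 recomputed values stayed within the technical SD (differences and medians) or within 1.5 times (counts), and 13 moved further. Many of the 76 could hardly move. The mean of probe sets changes nothing for a gene with 1 measured probe set, and median centring shifted each difference by only 0.03. The tally is therefore no measure of stability. No difference past 1.5-fold changed sign, whereas CTNNB1 (-0.05) became 0.06 with the mean of probe sets, and CTNNA1 (0.00) ranged from -0.19 to 0.05. No paired analysis was possible because each group holds 1 array, and for the same reason no replicate could be left out.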
